A study of Mus musculus with 6 samples.

Results

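Lymphocytes are a small share of the cells of a whole liver, and 35 genes that mark them were described across 6 mouse liver transcriptomes. The genes were taken by gene symbol from the deposited tables, which hold 24927 rows, as 14 genes of natural killer (NK) and cytotoxic cells, 11 of T cells and 10 of B and plasma cells. Of the 35, 31 had a row that could be used and 4 (Nkg7, Cd79a, Cd79b and Blk) had none. The libraries called KO-labelled here were 3 livers of C57BL/6 mice with the genotype Cdkl3-/-, in which the gene of a cyclin-dependent kinase-like protein was deleted in the liver. The libraries called WT-labelled were 3 livers of wild type C57BL/6 mice. All 6 were labelled as males 10 months old that ate a chow diet, and whether the mice had littermate controls, or which promoter or Cre drove the deletion, is not given in the sources used here. The series asks how the liver transcriptome changes when Cdkl3 is lost.

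Liver lymphocytes sit mostly in the sinusoids and around the portal tracts. NK cells and type 1 innate lymphoid cells, which are abundant in mouse liver, sense other cells through lectin-like receptors of the Klr family and kill with perforin and granzymes. T cells recognise peptides or lipids through a receptor that signals through the CD3 proteins, and B cells mature into plasma cells that secrete immunoglobulin. In whole tissue, a lower level of such a gene can come from fewer cells or from less RNA per cell, and these cannot be told apart in these data.

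The clearest difference was among the NK receptors. Klrd1 was 3.68-fold lower and Klre1 3.96-fold lower in KO-labelled than in WT-labelled libraries, and both passed the test across all genes. That test called 12.3% of all tested genes lower and 32.1% higher in KO-labelled libraries. None of the 11 tested T and B cell genes among the 35 passed it. The B cell genes instead differed within the KO-labelled group, where replicate 3 stood above replicates 1 and 2. Of the 31 genes, 12 had under 50 reads over all 6 libraries, 17 reached the mean of 0.1 FPKM required for the test, and 3 were listed at 0 in every library.

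The labels and the tissue did not hold in every respect, so groups are called by their labels throughout. Cdkl3 itself was not lower in the KO-labelled libraries, with 0.0761, 0.146 and 0.195 FPKM (fragments scaled to transcript length and library depth), against 0.166, 0.0883 and 0.119 FPKM in the WT-labelled libraries, from 10 to 31 reads and 13 to 32 reads. The deleted part of the gene is not given in the sources used here, so whether these reads fall inside it is not known. Xist averaged 0.0212 ± 0.00774 FPKM in KO-labelled and 253 ± 53.9 FPKM in WT-labelled libraries (SD, n = 3 each), and the Y-linked gene Ddx3y averaged 45.02 ± 6.35 FPKM and 0.120 ± 0.0757 FPKM. The groups thus separate by sex-linked genes although all 6 samples are labelled male, and the labelled genotype and this split cannot be told apart in any difference below. The kidney gene Kap was at 5264 FPKM in KO-labelled replicate 1 and at most 5.72 FPKM in the other 5 libraries. Of 8 measured hepatocyte genes, 8 were detected in each KO-labelled and 7 or 8 in each WT-labelled library, at very unlike levels. Albumin (Alb) was at 1137 ± 441 FPKM in KO-labelled and 324 ± 88.4 FPKM in WT-labelled libraries (SD, n = 3 each). In the same order, Cyp2e1 was at 1177 ± 177 and 143 ± 77.2 FPKM. Apoa1 was at 0.931 ± 0.877 and 0.0413 ± 0.0397 FPKM, and Ass1 at 0.113 ± 0.0456 and 0.0419 ± 0.0426 FPKM. The libraries held 24529400 to 39553300 counted reads in the KO-labelled group and 20460600 to 48614000 in the WT-labelled group, and mitochondrial transcripts made up 63.2% to 70.1% and 70.5% to 73.9% of all FPKM. One read on a transcript of 1 kb was worth 0.0206 to 0.0489 FPKM.

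Over all 10762 tested genes, limma called 32.1% higher and 12.3% lower in the KO-labelled libraries at a Benjamini-Hochberg adjusted p under 0.05, with a median log2 difference of 0.40. In 17.6% of the tested genes all 3 KO-labelled libraries lay below all 3 WT-labelled ones, and in 39.4% all lay above. Of the 17 tested lymphocyte genes, 0 were called higher and 2 lower, 5 had all KO-labelled libraries below and 0 above, and the median log2 difference was -0.25. Differences were on the log2(FPKM + 0.1) scale, as KO-labelled minus WT-labelled, and 11 of the 17 (64.71%) were below 0, against 36.41% of all tested genes. The called share also followed base composition. Among genes whose longest transcript held under 40% G and C, 27.3% were called lower and 9.63% higher. From 40% to under 45% the shares were 15.7% and 20.6%, from 45% to under 50% they were 8.3% and 39.0%, and from 50% upward 4.72% and 50.4%.

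**Figure D1:**
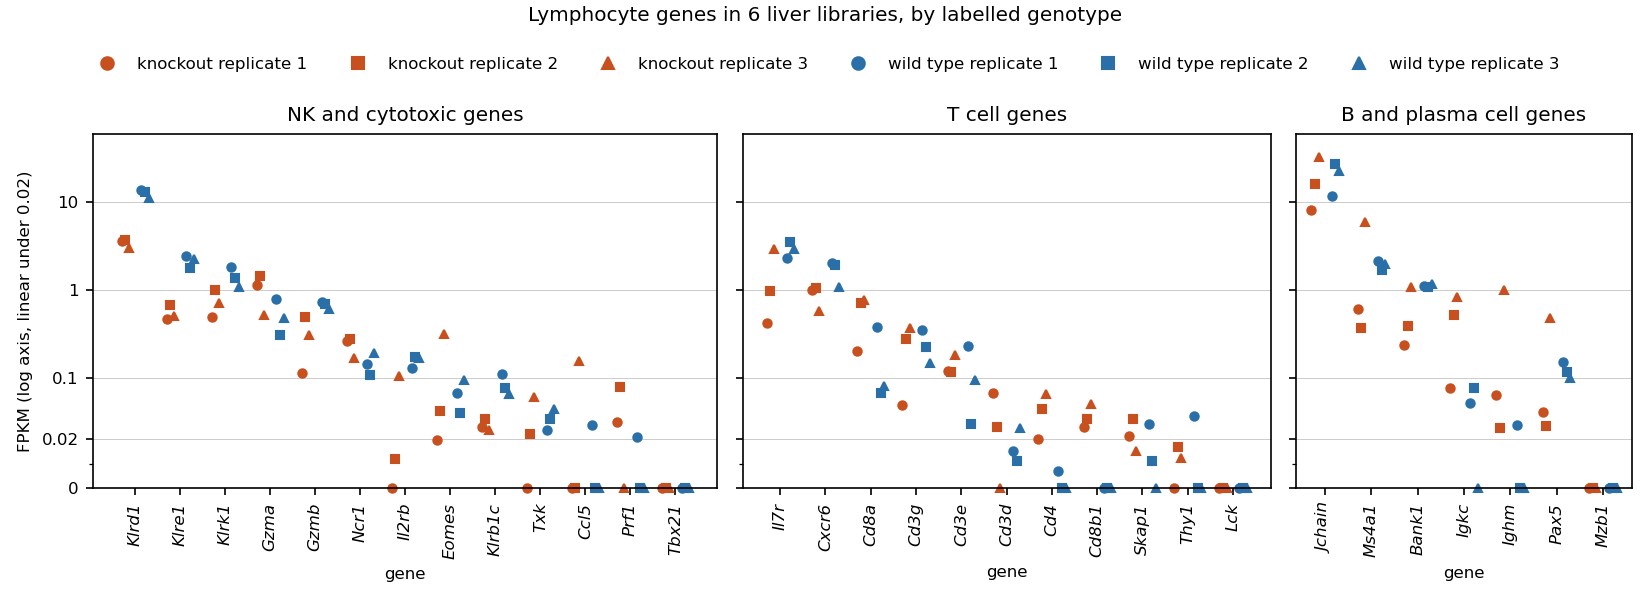
FPKM of the 31 measured lymphocyte genes in each library (log axis, linear under 0.02 FPKM), with KO-labelled libraries in orange on the left of each gene and WT-labelled libraries in blue on the right, and genes ordered by mean level within each class. Klrd1 and Klre1 form separate clouds by label, most T cell genes overlap, and KO-labelled replicate 3 (orange triangles) is the highest point for Jchain, Ms4a1, Igkc, Ighm and Pax5.

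Klrd1 encodes CD94, the partner that NKG2 receptors need to reach the cell surface and read the nonclassical MHC molecule Qa-1. It lies on chromosome 6 (chr6:129591782-129598775, plus strand, GRCm38, GENCODE M21). Klrd1 was at 3.66, 3.73 and 3.04 FPKM in KO-labelled replicates 1 to 3, against 13.8, 13.2 and 11.3 FPKM in WT-labelled replicates 1 to 3, from 408 and 1757 reads in all. Every KO-labelled value was well under every WT-labelled value. The log2 difference was -1.85 (SE 0.18, limma adjusted p = 5.35e-04).

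Klre1 encodes a lectin-like receptor that pairs with Klri proteins on mouse NK cells, and its gene is the neighbour of Klrd1 (chr6:129577905-129585827, plus strand, GRCm38). Klre1 was at 0.467, 0.673 and 0.503 FPKM in KO-labelled libraries, against 2.43, 1.79 and 2.29 FPKM in WT-labelled libraries. The groups did not overlap and the log2 difference was -1.81 (SE 0.25, limma adjusted p = 0.00153). Both calls held in all 21 other settings, with log2 differences from -2.51 to -1.35 for Klrd1 and from -2.47 to -1.03 for Klre1.

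The other tested NK genes gave no call. Klrk1 encodes NKG2D, an activating receptor for stress-induced ligands, and lies beside Klrd1 (chr6:129610323-129623864, minus strand, GRCm38). It was at 0.494, 1.02 and 0.719 FPKM in KO-labelled libraries, against 1.85, 1.39 and 1.08 FPKM in WT-labelled libraries. The groups came close without overlapping (log2 difference -0.88, SE 0.32, limma adjusted p = 0.0587). Gzmb, which encodes the serine protease granzyme B, was at 0.114, 0.493 and 0.313 FPKM in KO-labelled libraries, against 0.734, 0.702 and 0.613 FPKM in WT-labelled libraries, from 44 and 105 reads. Its groups did not overlap either (log2 difference -1.06, SE 0.40, limma adjusted p = 0.0634). After removal of the trend of each library on GC content and exon length, in a fit that called 19.0% of genes higher and 19.3% lower, Gzmb was called lower (log2 difference -1.81, limma adjusted p = 0.00637) and Klrk1 was at -0.09 (limma adjusted p = 0.860). Without KO-labelled replicate 2, Klrk1 (limma adjusted p = 0.0469) and Gzmb (limma adjusted p = 0.0349) were called lower.

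Gzma, another granzyme, and Ncr1, which encodes the NK receptor NKp46, did not share this direction. Gzma was at 1.13, 1.46 and 0.521 FPKM in KO-labelled libraries, against 0.800, 0.307 and 0.486 FPKM in WT-labelled libraries, so KO-labelled replicate 3 fell among the WT-labelled values. Ncr1 was at 0.265, 0.279 and 0.170 FPKM in KO-labelled libraries and at 0.144, 0.107 and 0.190 FPKM in WT-labelled libraries, from 34 and 22 reads, and the groups overlapped. The log2 differences were 0.83 (SE 0.44, limma adjusted p = 0.163) for Gzma and 0.45 (SE 0.30, limma adjusted p = 0.265) for Ncr1, and that of Ncr1 was below 0 after median centring (-0.21), quantile normalization (-0.39) or removal of the trend on GC content and exon length (-0.03). With Klrd1 and Klre1, 2 of 6 tested NK genes were called lower and 0 higher, against 12.3% and 32.1% of all tested genes. Klrd1 is at 35.8% GC and Klre1 at 40.5%. Over all tested genes, 27.3% of those under 40% GC and 15.7% from 40% to under 45% were called lower. After median centring, which called 29.4% of all genes lower and 18.1% higher, 4 of the 6 were called lower.

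The remaining NK genes were under the mean of 0.1 FPKM. Klrb1c, which encodes the classical C57BL/6 marker NK1.1, was at 0.0275, 0.0342 and 0.0253 FPKM in KO-labelled libraries, against 0.112, 0.0764 and 0.0660 FPKM in WT-labelled libraries, but this rests on 8 and 27 reads in all. In a fit with no filter on low values, where 5.13% of 20354 genes were called lower and 16.4% higher, its log2 difference was -0.51 (limma adjusted p = 0.195). Il2rb, the beta chain shared by the interleukin-2 and interleukin-15 receptors, was at 0, 0.0118 and 0.105 FPKM in KO-labelled libraries and at 0.129, 0.173 and 0.171 FPKM in WT-labelled libraries, from 14 and 71 reads. Those groups did not overlap, and the log2 difference in the unfiltered fit was -0.96 (SE 0.35, limma adjusted p = 0.0906). Eomes, a T-box factor of conventional NK cells, had 35 of its 44 KO-labelled reads in replicate 3. Eomes and Il2rb were just under the limit, with means over all 6 libraries of 0.0963 and 0.0983 FPKM, and Cd3e and Pax5 just above it, with 0.130 and 0.153 FPKM. Perforin (Prf1) had 10 reads in the KO-labelled and 2 in the WT-labelled libraries, the chemokine Ccl5 had 4 and 1, and the Tec kinase Txk had 28 and 38. Tbx21, which encodes T-bet, was listed at 0 in all 6 libraries, where 3 reads would be 0.0248 to 0.0589 FPKM.

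Klrd1, Klre1 and Klrk1 are part of the NK gene complex, in which many lectin-like receptor genes lie side by side. Of 14 Klr genes on chromosome 6 with a row, 11 were tested. In the KO-labelled libraries 6 of the 11 were called lower and 0 higher, against 12.3% and 32.1% of all tested genes. The 11 tested genes ranged from 32.7% GC (Klrk1) to 40.6% (Klra7). Over all tested genes, 27.3% of those under 40% GC and 15.7% from 40% to under 45% were called lower. All 11 had a log2 difference below 0, against 36.41% of all tested genes. It was 10 of 11 after removal of the trend on GC content alone, or without KO-labelled replicate 1 or 2 or WT-labelled replicate 3. The number called lower was 9 after median centring, where 29.4% of all genes were called lower, and 10 after quantile normalization, where 23.4% were. Besides Klrd1 and Klre1 these 6 were Klra9 and Klra7, which encode Ly49 receptors for MHC class I, and Klrc1 and Klrc2, which encode the NKG2A and NKG2C partners of CD94. Klra9 was at 1.15, 1.46 and 1.58 FPKM in KO-labelled libraries, against 6.34, 5.002 and 5.01 FPKM in WT-labelled libraries, with a log2 difference of -1.89 (SE 0.21, limma adjusted p = 8.22e-04). Klra9, Klra7, Klrd1 and Klre1 were still called lower after the trend on GC content and exon length was removed, and Klrc1 and Klrc2 were not. That fit called 4 of the 11 lower, against 19.3% of all genes. Klrc1 also lost its call without KO-labelled replicate 2 (limma adjusted p = 0.0673) or WT-labelled replicate 1 (limma adjusted p = 0.0578). Members of the Klra and Klrc groups are near-identical in places and the counting could split their reads among them, so their single values are uncertain. Klri2, which encodes a partner of Klre1, was under the limit at 0.0910 ± 0.0338 FPKM in KO-labelled and 0.0978 ± 0.0418 FPKM in WT-labelled libraries (SD, n = 3 each).

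**Figure D2:**
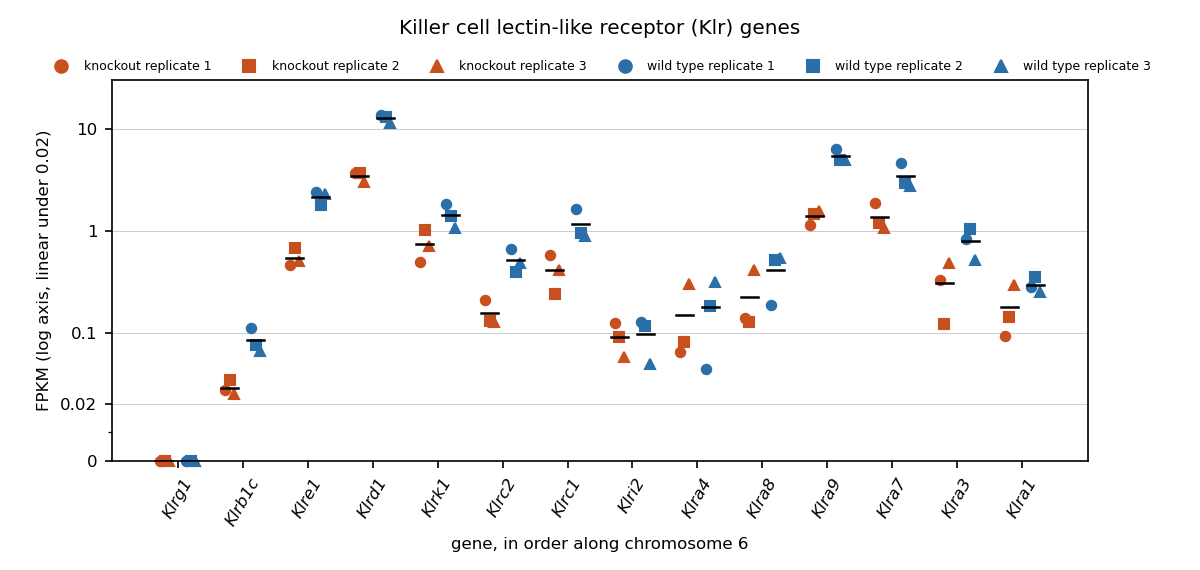
FPKM of 14 Klr genes in their order on chromosome 6 (log axis, linear under 0.02 FPKM), with KO-labelled libraries in orange on the left of each gene, WT-labelled libraries in blue on the right and a bar at each group mean. Klrd1, Klre1 and Klra9 show gaps between the groups, with means of 3.48, 0.548 and 1.40 FPKM in KO-labelled and 12.8, 2.17 and 5.45 FPKM in WT-labelled libraries, while Klri2 and Klra4 overlap.

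Outside that complex, Cd160, a receptor of NK cells and type 1 innate lymphoid cells for the ligand HVEM, was at 0.586, 0.421 and 0.482 FPKM in KO-labelled libraries, against 2.02, 2.31 and 2.77 FPKM in WT-labelled libraries. It was called lower, with a log2 difference of -2.05 (SE 0.24, limma adjusted p = 9.24e-04). The 14 tested further NK genes include Klra and Klrc genes of the complex. Of the 14, 0 were called higher and 5 lower (Klra9, Klra7, Klrc1, Klrc2 and Cd160), against 32.1% and 12.3% of all tested genes. The median log2 difference of the 14 was -0.62. Outside the complex, Itga1 (0.24), S1pr5 (0.62), Samd3 (0.43) and Tyrobp (0.82) had log2 differences above 0 and Itga2 (-0.53) below, without a call. Summed over the 13 measured NK genes of the main list, the level was 5.93 to 7.84 FPKM in KO-labelled and 16.4 to 20.2 FPKM in WT-labelled libraries, and Klrd1 alone made up 52.2% and 70.6% of these sums.

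Promoter sequences were read from RefSeq (GRCm38.p6), from 250 bases before the start to 50 after it, because all KO-labelled values of Klre1, Klrk1 and Gzmb lay below the WT-labelled ones. Of the 35 genes, 22 matched the table, with 26 promoters. The windows below belong to Klre1 (chr6:129577963-129578262, plus strand, the first of 2 annotated starts), Klrk1 (chr6:129623815-129624114, minus strand) and Gzmb (chr14:56262285-56262584, minus strand), 5′ to 3′, with TGTGGT or its reverse complement ACCACA in capitals. These letters are the core bound by RUNX factors, of which RUNX3 acts in NK and CD8 T cells.
Klre1: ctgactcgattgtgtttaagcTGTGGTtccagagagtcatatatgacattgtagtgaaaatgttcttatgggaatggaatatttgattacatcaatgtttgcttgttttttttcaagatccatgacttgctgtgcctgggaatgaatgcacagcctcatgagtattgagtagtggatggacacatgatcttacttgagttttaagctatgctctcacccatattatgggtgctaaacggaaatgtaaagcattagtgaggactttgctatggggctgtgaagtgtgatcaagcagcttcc
Klrk1: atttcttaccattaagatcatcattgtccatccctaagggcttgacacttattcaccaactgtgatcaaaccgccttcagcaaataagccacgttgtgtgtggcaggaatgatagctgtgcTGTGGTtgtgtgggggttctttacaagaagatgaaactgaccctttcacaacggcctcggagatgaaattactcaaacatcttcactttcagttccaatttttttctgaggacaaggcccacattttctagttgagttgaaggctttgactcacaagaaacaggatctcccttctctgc
Gzmb: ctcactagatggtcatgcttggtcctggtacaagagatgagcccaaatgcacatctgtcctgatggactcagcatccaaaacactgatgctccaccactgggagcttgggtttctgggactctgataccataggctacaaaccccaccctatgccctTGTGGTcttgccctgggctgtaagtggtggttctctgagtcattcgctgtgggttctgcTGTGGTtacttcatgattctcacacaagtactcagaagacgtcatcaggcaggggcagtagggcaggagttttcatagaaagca

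The motif occurred in 13 of 26 lymphocyte gene promoters (50%), against 16.8% of all 32851 promoters of the same length in the table, counted on both strands. It was also in promoters of Ncr1, Gzma, Prf1, Txk and Il7r, whose groups overlapped, and of Cxcr6 and Klrb1c, whose groups did not. The others were Lck, listed at 0, and Nkg7, without a row. Ncr1 entered the 13 with 2 overlapping windows. The printed windows of Klre1 and Klrk1 hold 1 copy each and that of Gzmb holds 2, and the window of the other start of Klre1 (chr6:129578036-129578335) holds 0. The Ets core AGGAAG or CTTCCT was in 13 of 26, against 35.4% of all promoters, and in Klre1 it lay in the window of the other start. The T-box motif AGGTGTGA was in 1 of 26, against 1.28%, the octamer ATGCAAAT of B cell promoters in 0 of 26, against 1.74%, and TATAAA in 1 of 26, against 13.6%. Of the B cell genes, only Bank1, Pax5, Jchain and Cd79a had a promoter among the 26. All these motif counts are letter matches and no binding was measured.

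T cell genes were low and mostly without a shared direction. Of the 11 genes 5 were tested, 0 were called in either direction, and 1 of 5 had an unadjusted limma p under 0.05, against 5719 of all 10762 tested genes. The invariant chains Cd3e and Cd3g, which every T cell receptor needs for signalling, overlapped between the groups. Cd3e was at 0.120, 0.118 and 0.183 FPKM in KO-labelled libraries and at 0.231, 0.0303 and 0.0958 FPKM in WT-labelled libraries. Cd3g was at 0.0499, 0.278 and 0.366 FPKM in KO-labelled libraries and at 0.357, 0.227 and 0.1495 FPKM in WT-labelled libraries. Their log2 differences were 0.23 (95% interval -0.75 to 1.203) and -0.16 (95% interval -1.29 to 0.96), so the spread allows differences near 1 on this scale in both genes. The sign of Cd3e turned under 5 and that of Cd3g under 4 of the 21 other settings. Cd3d, the third CD3 chain, had 5 reads in KO-labelled and 3 in WT-labelled libraries.

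The co-receptor genes gave no call, and Cd8b1 and Cd4 had at most 7 reads in any library. Cd8a, which marks cytotoxic T cells and some dendritic cells, was at 0.202, 0.709 and 0.782 FPKM in KO-labelled libraries, against 0.382, 0.0679 and 0.0806 FPKM in WT-labelled libraries. KO-labelled replicate 1 lay below WT-labelled replicate 1, and the log2 difference was 1.29 (SE 0.57, limma adjusted p = 0.0999). It was called higher without KO-labelled replicate 1 (1.79, limma adjusted p = 0.0316) or without WT-labelled replicate 1 (1.78, limma adjusted p = 0.0381). Cd8b1, its partner chain on T cells, had 1, 2 and 2 reads in KO-labelled libraries and 0 in each WT-labelled library. Cd4 had 2, 7 and 7 reads in KO-labelled libraries, against 1, 0 and 0 in WT-labelled libraries, and in the unfiltered fit its log2 difference was 0.47 (limma adjusted p = 0.117).

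A pair of receptors that lymphocytes of the liver use for residence and survival were lower in level without passing the test. Cxcr6, the receptor for CXCL16 that keeps T, NKT and innate lymphoid cells in the sinusoids, was at 1.01, 1.05 and 0.581 FPKM in KO-labelled libraries, against 2.03, 1.93 and 1.09 FPKM in WT-labelled libraries. The groups did not overlap, though KO-labelled replicate 2 and WT-labelled replicate 3 were close (log2 difference -0.85, SE 0.33, limma adjusted p = 0.0719). Il7r, the interleukin-7 receptor of naive and memory T cells, was at 0.428, 0.976 and 2.92 FPKM in KO-labelled libraries, against 2.35, 3.53 and 2.96 FPKM in WT-labelled libraries. KO-labelled replicate 3 lay within the WT-labelled range and the other two below it (log2 difference -1.33, SE 0.58, limma adjusted p = 0.0969). Without KO-labelled replicate 3, Il7r was called lower (-1.995, limma adjusted p = 0.00890), in a fit that called 10.4% of genes lower and 26.8% higher. Without WT-labelled replicate 3, Cxcr6 was called lower (-1.12, limma adjusted p = 0.0453). The adaptor Skap1 had 17 reads in KO-labelled and 12 in WT-labelled libraries and Thy1, a surface marker of T cells, had 3 and 4. Lck, the kinase that starts T cell receptor signalling, was listed at 0 in all 6 libraries, where 3 reads would be 0.0211 to 0.0501 FPKM.

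Among 14 tested further T cell genes, 1 was called higher and 2 lower, against 32.1% and 12.3% of all tested genes. The signalling adaptor Lcp2 (SLP-76) was at 0.996 ± 0.273 FPKM in KO-labelled and 2.39 ± 0.425 FPKM in WT-labelled libraries (SD, n = 3 each), with a log2 difference of -1.197 (limma adjusted p = 0.00885). Zbtb16, the PLZF factor of innate-like T cells that hepatocytes also express, reached the limit for the test only through the KO-labelled group, with means of 0.181 FPKM in KO-labelled and 0.0228 FPKM in WT-labelled libraries, and was called higher (1.17, limma adjusted p = 0.0308). That call was lost under median centring (limma adjusted p = 0.269), after removal of the trend on GC content and exon length (0.08, limma adjusted p = 0.873) and without any 1 of the WT-labelled libraries (limma adjusted p 0.0713 to 0.0911). Trac, the constant part of the T cell receptor alpha chain, was at the threshold (-1.25, limma adjusted p = 0.0499) and lost its call with a pseudocount of 1 (limma adjusted p = 0.0604) and without KO-labelled replicate 1 or 2 or WT-labelled replicate 2 or 3 (limma adjusted p 0.117 to 0.165).

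**Figure D3:**
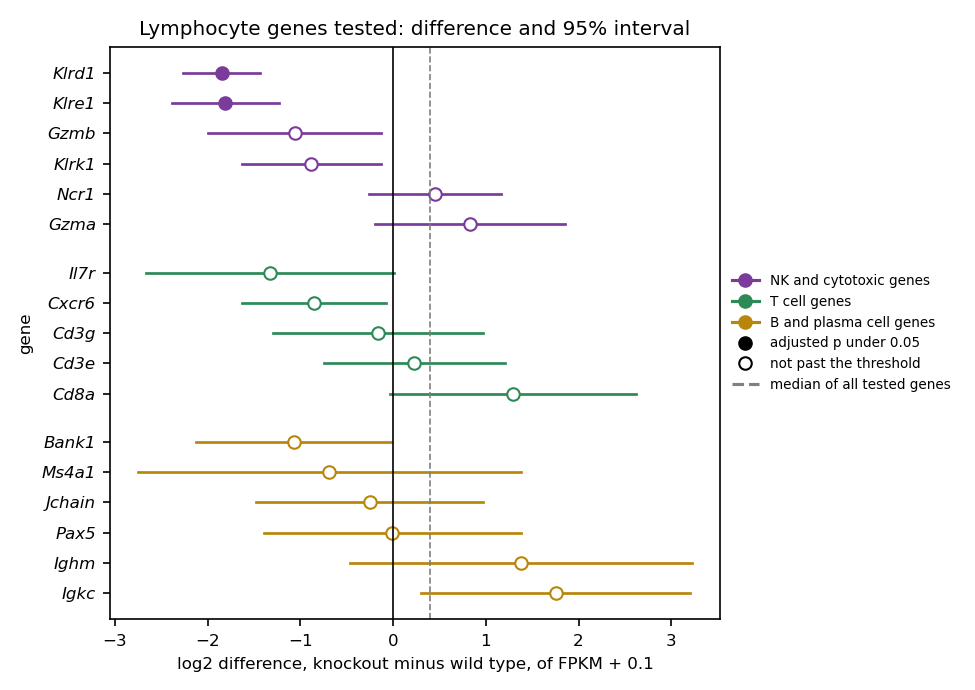
Log2 difference of FPKM + 0.1, KO-labelled minus WT-labelled, with its 95% interval from limma, for the 17 tested lymphocyte genes by class, where filled points have an adjusted p under 0.05 and the dashed line is the median of all tested genes at 0.40. The intervals of Klrd1 (-2.27 to -1.43) and Klre1 (-2.39 to -1.24) lie far left of both lines, and those of the B cell genes Ms4a1, Jchain, Pax5 and Ighm span 0. Those of the B cell genes Igkc (0.306 to 3.205) and Bank1 (-2.12 to -0.0186) do not span 0, and neither gene was called.

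B and plasma cell genes did not separate the labels. Of the 10 genes 7 had a row, 6 were tested, 0 were called in either direction and 2 of 6 had an unadjusted limma p under 0.05, against 5719 of all 10762 tested genes. Jchain, which joins IgA and IgM into polymers in plasma cells, was at 8.13, 16.3 and 32.7 FPKM in KO-labelled libraries and at 11.7, 27.2 and 23.0 FPKM in WT-labelled libraries. The KO-labelled libraries held both the lowest and the highest value. Ms4a1, which encodes CD20 on B cells, was at 0.606, 0.372 and 5.98 FPKM in KO-labelled libraries, against 2.14, 1.72 and 1.97 FPKM in WT-labelled libraries. Here KO-labelled replicates 1 and 2 lay below every WT-labelled library and replicate 3 above all of them, and the log2 difference was -0.69 (SE 0.88, limma adjusted p = 0.553).

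The same layout appeared in other genes of the lineage. Pax5, the factor that fixes B cell identity, was at 0.0414, 0.0286 and 0.482 FPKM in KO-labelled libraries, against 0.1505, 0.116 and 0.0994 FPKM in WT-labelled libraries, with 114 of its 133 KO-labelled reads in replicate 3. Bank1, a scaffold of B cell receptor signalling, was at 0.240, 0.388 and 1.09 FPKM in KO-labelled libraries, against 1.13, 1.09 and 1.16 FPKM in WT-labelled libraries, so that replicate 3 was level with the WT-labelled group and the other two below it (log2 difference -1.07, SE 0.45, limma adjusted p = 0.0895). Without KO-labelled replicate 3, both Ms4a1 (-1.82, limma adjusted p = 0.00635) and Bank1 (-1.59, limma adjusted p = 0.0105) were called lower. Both were below 0 with and without that library, and without KO-labelled replicate 2 Ms4a1 was at 0.0252.

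Ighm and Igkc, the immunoglobulin genes of the main list, had at most 2 reads in any WT-labelled library. Ighm, the mu heavy chain of naive B cells, had 3, 2 and 50 reads in KO-labelled libraries and 2, 0 and 0 in WT-labelled libraries (0.0648, 0.0268 and 0.992 FPKM in KO-labelled, against 0.0294, 0 and 0 FPKM in WT-labelled libraries), and it reached the limit for the test through KO-labelled replicate 3. Igkc, the kappa light chain constant region, was at 0.0766, 0.523 and 0.844 FPKM in KO-labelled libraries, against 0.0522, 0.0773 and 0 FPKM in WT-labelled libraries, from 24 and 3 reads. The log2 differences were 1.38 (SE 0.79, limma adjusted p = 0.191) for Ighm and 1.75 (SE 0.62, limma adjusted p = 0.0527) for Igkc. Igkc also reached the limit for the test only through the KO-labelled group, with means of 0.481 FPKM in KO-labelled and 0.0432 FPKM in WT-labelled libraries, so its call without KO-labelled replicate 1 (2.46, limma adjusted p = 0.00476, in a fit that called 32.6% of genes higher and 11.6% lower) is given as a description. Mzb1, a chaperone of plasma cells, was listed at 0 in every library, where 3 reads would be 0.0508 to 0.121 FPKM.

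A set of 10 B lineage genes, chosen for this view after their values were seen and so with no test, were compared by library. Sdc1 and Prdm1, which were tested too, were left out of the 10. Sdc1 was lowest in replicate 3 among the KO-labelled libraries, and Prdm1 averaged 0.191 ± 0.0120 FPKM in those libraries (SD, n = 3). KO-labelled replicate 3 was the highest of the 6 libraries in 9 of the 10, and Bank1 was the exception. The share of all genes that were highest in this library is not given here, so the 9 of 10 is a description only. The value in KO-labelled replicate 3 was 12.2 times the mean of KO-labelled replicates 1 and 2 for Ms4a1, 13.8 times for Pax5, 21.6 times for Ighm, 7.77 times for the B cell coactivator Pou2af1 and 2.68 times for Jchain. This library is the one whose table header carries a sample code other than its title, and its mitochondrial share was the lowest of the 6, at 63.2%. The part of either in the B cell values was not tested. In KO-labelled replicate 1, where Kap was high, the summed level of the 7 B cell genes was the lowest at 9.16 FPKM, against 17.6 and 42.1 FPKM in KO-labelled replicates 2 and 3 and 15.2 to 30.2 FPKM in the WT-labelled libraries. Jchain alone made up 82.9% of these sums in KO-labelled and 86.4% in WT-labelled libraries. Ms4a1 and Pax5 were lowest in KO-labelled replicate 2.

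**Figure D4:**
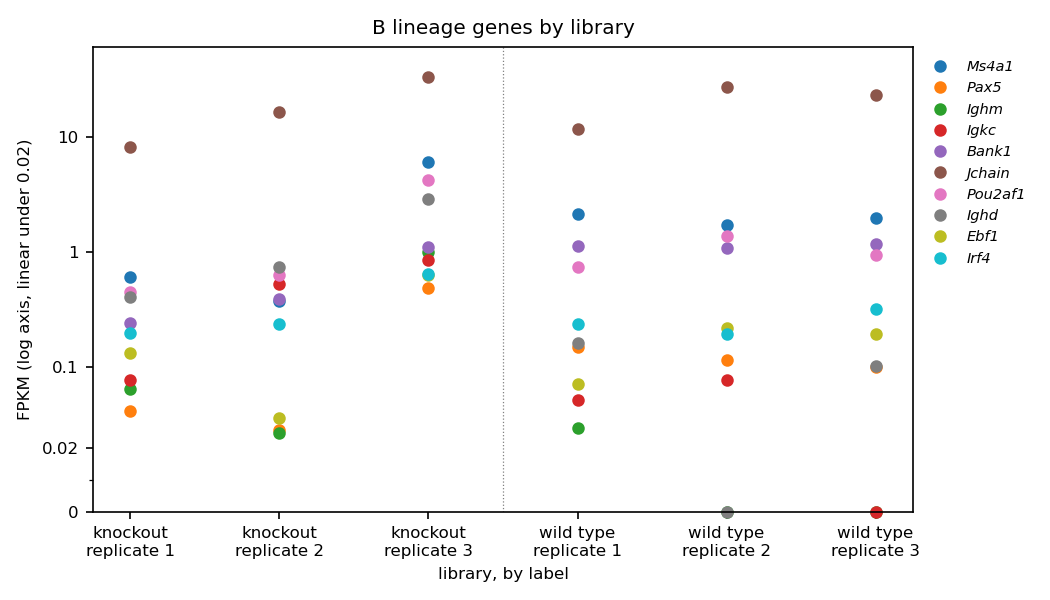
FPKM of 10 B lineage genes in each library (log axis, linear under 0.02 FPKM), KO-labelled libraries on the left and WT-labelled libraries on the right, with 1 colour per gene. KO-labelled replicate 3 holds the highest point for every gene but Bank1, for example 5.98 FPKM for Ms4a1 and 4.17 FPKM for Pou2af1.

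Of 6 tested further B and plasma cell genes, 2 were called higher in the KO-labelled libraries and 0 lower, against 32.1% and 12.3% of all tested genes. Sdc1 (CD138), a plasma cell marker that hepatocytes also make, was at 2.48, 3.94 and 2.32 FPKM in KO-labelled libraries, against 0.240, 0.157 and 0.231 FPKM in WT-labelled libraries (log2 difference 3.26, limma adjusted p = 4.33e-04). For Sdc1, replicate 3 was the lowest of the KO-labelled libraries, whereas for Ms4a1, Pax5 and Ighm it was the highest. Ighd, the delta heavy chain, was at 0.408, 0.745 and 2.88 FPKM in KO-labelled libraries, against 0.161, 0 and 0.103 FPKM in WT-labelled libraries (log2 difference 2.64, limma adjusted p = 0.0165), and it reached the limit for the test only through the KO-labelled group. The call was lost without WT-labelled replicate 2 (limma adjusted p = 0.0611), with a pseudocount of 1 (limma adjusted p = 0.0667), under quantile normalization (limma adjusted p = 0.0558) and after removal of the trend on GC content and exon length (limma adjusted p = 0.0562).

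Signals that lymphocytes read were measured in the same libraries. Of 10 tested chemokine and cytokine genes that attract or feed lymphocytes, 2 were called higher and 2 lower in the KO-labelled libraries. Over all tested genes the shares were 32.1% and 12.3%. Cxcl16, the ligand of CXCR6, was at 1.58, 2.16 and 0.694 FPKM in KO-labelled libraries, against 0.156, 0.109 and 0.0647 FPKM in WT-labelled libraries (log2 difference 2.81, SE 0.43, limma adjusted p = 0.00220). Cxcl10, an interferon-induced ligand of CXCR3 on T and NK cells, was at 0.508 ± 0.0559 FPKM in KO-labelled and 1.95 ± 0.694 FPKM in WT-labelled libraries (SD, n = 3 each; log2 difference -1.70, limma adjusted p = 0.00386). Vcam1, which holds lymphocytes on endothelium, was called lower (-0.96, limma adjusted p = 0.0181) but not after the trend on GC content and exon length was removed (limma adjusted p = 0.134), without KO-labelled replicate 3 (limma adjusted p = 0.0578) or without WT-labelled replicate 2 (limma adjusted p = 0.0659). Cxcl12 was called higher (0.74, limma adjusted p = 0.0437), but it turned to -0.09 after removal of that trend, and the call was lost without KO-labelled replicate 2 or 3 or WT-labelled replicate 2 or 3 (limma adjusted p 0.0845 to 0.140).

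Several ligands of NK and CD8 T cell receptors were higher. Of 8 tested, 4 were called higher in the KO-labelled libraries and 0 lower, against 32.1% and 12.3% of all tested genes. After median centring, which called 18.1% of all genes higher and 29.4% lower, 3 were called higher and 2 lower. Quantile normalization and removal of the trend on GC content, with or without exon length, each gave 1 called lower. Raet1d and Raet1e encode RAE-1 proteins, ligands of the NKG2D receptor that Klrk1 encodes. Raet1d was at 3.45, 6.11 and 2.93 FPKM in KO-labelled libraries, against 0.674, 0.2998 and 0.543 FPKM in WT-labelled libraries (log2 difference 2.80, SE 0.36, limma adjusted p = 0.00128). Raet1e was at 1.66, 2.25 and 1.13 FPKM in KO-labelled libraries, against 0.309, 0.429 and 0.385 FPKM in WT-labelled libraries (log2 difference 1.87, SE 0.31, limma adjusted p = 0.00293). The groups were apart for both, and Raet1 genes are close copies whose reads the counting could split. Ulbp1, another ligand of this list, went the other way without overlap or a call. It was at 0.349 ± 0.0296 FPKM in KO-labelled and 0.523 ± 0.0655 FPKM in WT-labelled libraries (SD, n = 3 each; log2 difference -0.47, limma adjusted p = 0.170). Cd1d1, which presents lipids to NKT cells, was at 44.1 ± 12.9 FPKM in KO-labelled and 12.2 ± 1.96 FPKM in WT-labelled libraries (SD, n = 3 each; log2 difference 1.82, limma adjusted p = 0.00140). Clec2d, a ligand of some Klrb1 receptors, was called higher (1.80, limma adjusted p = 0.0191), but not under median centring (limma adjusted p = 0.0565) or without KO-labelled replicate 2 or 3 or WT-labelled replicate 2 or 3 (limma adjusted p 0.0532 to 0.0703).

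Markers of other cells differed between the labels too. The counts below stand beside 32.1% of all tested genes called higher and 12.3% called lower. Pan-leukocyte genes summed to 12.7 to 21.4 FPKM in KO-labelled and 35.4 to 61.5 FPKM in WT-labelled libraries, of which the tetraspanin gene Cd53 alone made up 66.6% and 94.5%. Cd53 was called lower and the actin-bundling gene Lcp1 higher among 5 tested, and Cd52, Coro1a, Rac2 and Vav1 were listed at 0 in each WT-labelled library. Among 6 tested Kupffer cell and macrophage genes 1 was called higher and 2 lower, with sums of 14.8 to 61.6 FPKM and 22.3 to 40.4 FPKM, and Clec4f and Csf1r were listed at 0 in each WT-labelled library. Of neutrophil genes 2 of 2 tested were called higher, and 0 under quantile normalization or removal of the trend on GC content and exon length, with sums of 1.64 to 3.05 FPKM and 0.141 to 0.680 FPKM. Ly6g was listed at 0 throughout, and S100a9, at 0 in each WT-labelled library, reached the limit for the test only through the KO-labelled group. Dendritic cell genes gave 0 calls among 5 tested, with 1 at an unadjusted limma p under 0.05, and 3 lower after median centring, with sums of 2.38 to 3.09 FPKM and 3.58 to 3.77 FPKM. Endothelial genes gave 2 higher and 4 lower of 6, and 0 higher and 1 lower without WT-labelled replicate 2, with Pecam1 listed at 0 in each WT-labelled library. Stellate cell and fibroblast genes gave 3 lower of 3, with sums of 21.3 to 32.3 FPKM and 76.2 to 129.7 FPKM. Hepatocyte genes gave 6 higher of 7, with sums of 1911 to 3196 FPKM in KO-labelled and 389 to 698 FPKM in WT-labelled libraries. Cholangiocyte genes gave 2 higher of 3, and 0 under median centring, quantile normalization, either trend removal, and without KO-labelled replicate 2 or WT-labelled replicate 3. The 1 kidney gene called higher of 5, Kap, lost its call under median centring and without KO-labelled replicate 2 or 3 or any 1 WT-labelled library. Erythroid genes gave 1 higher of 3 (Alas2) and proliferation genes 0 of 4, with 2 of 4 at an unadjusted limma p under 0.05. Alas2, Epcam (cholangiocyte), Ehd3 (endothelial), Apoa1 (hepatocyte) and Kap also reached the limit for the test only through the KO-labelled group. Their WT-labelled means were 0.0481, 0.0651, 0.0504, 0.0413 and 0.0262 FPKM in that order, so their calls are given as a description. The part of any of these in the NK receptor difference was not tested.

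Which lymphocyte genes could be seen at all followed base composition. Over the 31 measured genes the mean level over the 6 libraries fell off with the GC content of the longest transcript, with a Spearman rho of -0.832 and a Pearson r of -0.774 on the log2 scale. Over all 22032 genes with both values the same figures were -0.276 and -0.291. These are correlations across genes in the same libraries, which are not independent replicates. All 5 genes under 40% GC, namely Klrd1, Klrk1, Cd3g, Jchain and Bank1, had a mean of at least 0.1 FPKM, against 2 of 13 genes of at least 50% GC. Tbx21, Lck and Mzb1, each listed at 0, were all among those 13. Levels of genes that differ in GC content, such as Klrd1 at 35.8% and Tbx21 at 59.3%, cannot be read against each other for that reason. The sums over genes given above, and the shares of Klrd1, Jchain and Cd53 in them, carry the same limit. The part of GC content in the level of any single gene was not tested.

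**Figure D5:**
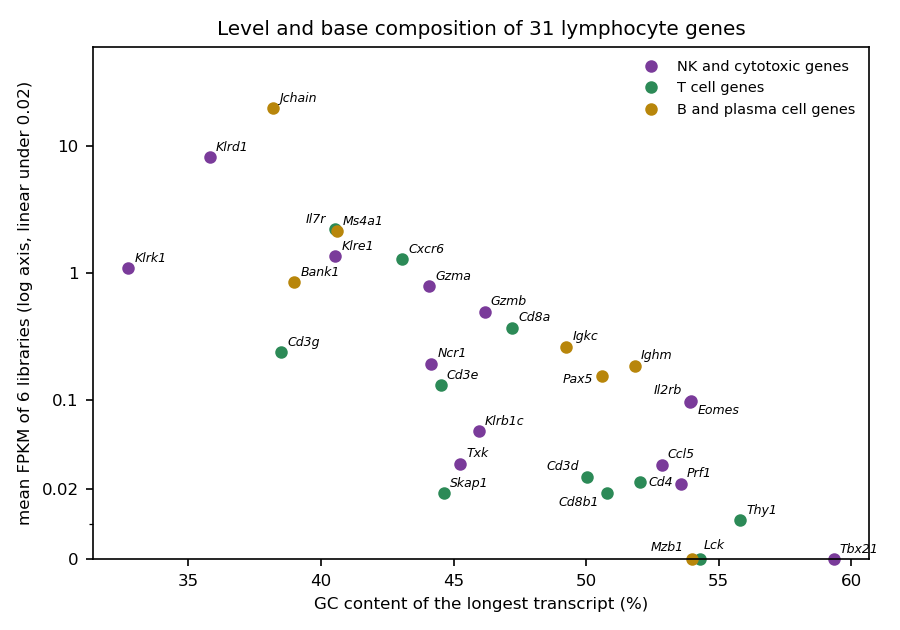
Mean FPKM over the 6 libraries (log axis, linear under 0.02 FPKM) against the GC content of the longest transcript, in percent, for the 31 measured lymphocyte genes, coloured by class. Jchain and Klrd1 at the upper left are GC-poor and highest, and 11 of the 13 genes of at least 50% GC lie under a mean of 0.1 FPKM.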

How the data were processed

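Whole-liver RNA was sequenced in 6 samples, 3 per labelled genotype. Per the labels' protocols, RNA was extracted from frozen liver with Trizol and libraries were made by Illumina protocols, and per the submitters' processing notes HISAT2 and GRCm39 were used. No counting tool or annotation is named there. The deposited values are FPKM, 1 per row and sample per the file headers, which the authors scaled to transcript length and library depth.

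Identifier and symbol named the same gene in 0 of 24927 rows. Where whole reads were counted, FPKM times the true exon length (GENCODE M21, GRCm38) comes in whole steps that are fixed within a library, and these give reads and depth. By symbol, 98.95% of 43297 low values (up to 40 reads) outside the chromosome 1 block were whole to within 0.15 read, against 35.99% inside it. Symbols were therefore used, and 1757 rows of that block, 127 without a symbol and 249 with a repeated symbol were left out. Sums of reads and 3-read limits cover counting error only. Whether every library is a separate mouse is not stated in the labels, and the p-values reflect only how these libraries vary. A comparison of 3 against 3 libraries cannot go below an exact two-sided p of 0.1 for a single value.

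Log2(FPKM + 0.1), a scale that understates changes of low genes, was modelled on the labelled genotype in limma 3.58.1 (R 4.3.3) with robust moderation and a mean-variance trend, over genes with a mean of at least 0.1 FPKM over all 6 libraries, with Benjamini-Hochberg adjustment over all of them. The fit was tested on simulated data. All 35 genes are named, and from the further lymphocyte and ligand lists up to 4 genes with the smallest adjusted p. The rule allowed the same for other cell types, which are given as counts and sums instead. Klri2, Klrc1, markers of other cells and the 10 B lineage genes compared by library were named after their values were seen. The members and lists were chosen with earlier results of these data known. Other settings were 2 pseudocounts, 3 filters, median centring, quantile normalization, rescaling without mitochondrial transcripts, removal of a loess trend of each library on GC content and exon length, no robust moderation, 2 thresholds, the left-out rows added, a replicate block and leaving out each library. Removal of the trend on GC content alone was chosen after seeing the data. GC content came from the longest GENCODE M21 transcript by symbol. Tables and figures were made in Python 3.11.15 (pandas 2.3.3, numpy 2.4.6, matplotlib 3.10.9, scipy 1.17.1).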

Additional observations from a re-analysis of the deposited data

How the results depend on the processing

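Over 21 other settings, 338 values of the 17 tested genes were recomputed. Of these, 284 kept their direction and their side of the threshold, 34 became called, 20 changed sign and 0 lost a call. The median log2 difference of all genes was 0.40, and -0.26 after median centring.

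NK genes called lower numbered 2, and 4 under median centring, quantile normalization, rescaling without mitochondrial transcripts and a threshold of 0.1, and 3 without the trend on GC content and exon length, without that on GC content alone, and with at least 1 FPKM in 3 libraries. T cell genes called lower numbered 0, and 2 under median centring, quantile normalization and the threshold of 0.1 (which also called 1 higher), and 1 under the rescaling and the removal of the trend on GC content and exon length. B cell genes called lower numbered 0, and 1 under median centring, quantile normalization, the rescaling and the threshold of 0.1, which also called 1 higher. Leaving out 1 library gave 2 to 4 NK genes lower, 0 to 1 T cell genes higher and 0 to 1 lower, and 0 to 1 B cell genes higher and 0 to 2 lower.

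Over all genes, 3458 were called higher and 1319 lower. The numbers higher and lower were 1946 and 3162 under median centring, 2021 and 2520 under quantile normalization, 1993 and 2028 without the trend on GC content and exon length, 1988 and 2017 without the trend on GC content alone, and 2046 and 613 at a threshold of 0.01. The number higher was 2293 with a mean of at least 0.5 FPKM and 1907 with at least 1 FPKM in 3 libraries, where fewer genes were tested. Leaving out 1 library gave 2472 to 3465 higher and 797 to 1238 lower, the lowest of these without WT-labelled replicate 3.

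The sign changed for 6 uncalled genes, and the cause was not tested. Pax5 (-0.0096) was at 0.0564 and 0.0754 with pseudocounts of 1 and 0.5. Ncr1 (0.45) and Cd3e (0.23) were at -0.21 and -0.43 after median centring, at -0.39 and -0.62 after quantile normalization, and at -0.0259 and -0.0981 without the trend on GC content and exon length. Cd3g (-0.16) was at 0.11 without that trend. Without the trend on GC content alone, Jchain (-0.25) was at 0.0964, Cd3g at 0.16 and Cd3e at -0.0861. Leaving out 1 library gave -0.0839 to 0.38 for Pax5 (above 0 without KO-labelled replicate 1 or 2 or WT-labelled replicate 1), -0.75 to 0.25 for Jchain (above 0 without KO-labelled replicate 1), -0.49 to 0.33 for Cd3g (above 0 without KO-labelled or WT-labelled replicate 1), -0.0946 to 0.58 for Cd3e (below 0 without WT-labelled replicate 2) and -1.82 to 0.0252 for Ms4a1 (above 0 without KO-labelled replicate 2).

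Deviations from the group mean of same-numbered libraries correlated at -0.03, -0.13 and 0.12, and those of other-numbered libraries at -0.25 to 0.30. With 3 libraries per group these values cannot exclude a pairing, and the main fit took the libraries as unpaired. With a replicate block, 2 NK genes were lower, 0 T or B cell genes were called, and 2821 genes were called higher and 1046 lower. Depth limits 12 of the 31 genes, which had under 50 reads over all libraries.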
